A study of Mus musculus with 2 samples.

Results

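Oxidative phosphorylation genes encode the mitochondrial machinery that oxidises NADH and succinate and makes ATP. The members here were every probe set of the array whose annotation names exactly 1 gene and whose gene symbol begins with Nduf, Uqcr, Cox4 to Cox8 or Atp5, or is Sdha, Sdhb, Sdhc, Sdhd, Cycs or Cyc1. That rule uses names and no measured value. It took 184 of 45037 probe sets, for 92 of 18193 named genes. By complex these were 34 genes of complex I, 4 of complex II, 9 of complex III, 19 of complex IV with its tissue isoforms, and 17 of complex V. The others were 8 assembly factors of complex I and Cycs, cytochrome c.

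Liver RNA was measured on Affymetrix arrays in male wild-type (wt) C57BL/6 mice, 8 weeks old. The renal ischaemia-reperfusion injury (IRI) group underwent bilateral warm renal ischaemia lasting 30 minutes followed by reperfusion, and the sham group only a sham operation. Liver was collected at 24 hours, and frozen tissue (100 mg) of 3 mice per group was pooled. Each pool was read on 1 array, so there is no replicate error and no test, and every difference describes these 2 pools. In whole liver, fewer cells of a type and less RNA per cell cannot be told apart.

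In the respiratory chain, complexes I and II take electrons from NADH and succinate and pass them to ubiquinone. Complex III passes them on to cytochrome c, complex IV passes them to oxygen, and complex V makes ATP with the proton gradient that complexes I, III and IV build. Hepatocytes are rich in mitochondria, and their urea and glucose synthesis draws on this ATP. All members analysed here are nuclear genes, and the subunits encoded by mitochondrial DNA were not analysed here.

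Members are described by their promoters first, because their transcripts are known to share regulators. The bases upstream of the start site are shown for 4 members, a pair that was lower in the IRI pool (Uqcrfs1 and Sdhd) and a pair that was higher (Cycs and Cox6a1), chosen after their values were seen. Each is 250 bases from RefSeq, build GRCm38.p6, read 5′ to 3′ on the strand of the gene, and capitals mark matches to the motifs described after them. The windows are chr13:30545317-30545566 for Uqcrfs1, chr9:50603850-50604099 for Sdhd, chr6:50566570-50566819 for Cycs and chr5:115348959-115349208 for Cox6a1, all on the minus strand.
Uqcrfs1: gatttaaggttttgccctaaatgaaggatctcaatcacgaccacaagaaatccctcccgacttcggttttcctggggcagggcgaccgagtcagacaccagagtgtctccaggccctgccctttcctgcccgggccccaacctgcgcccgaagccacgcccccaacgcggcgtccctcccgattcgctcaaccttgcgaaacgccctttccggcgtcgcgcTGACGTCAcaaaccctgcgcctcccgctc
Sdhd: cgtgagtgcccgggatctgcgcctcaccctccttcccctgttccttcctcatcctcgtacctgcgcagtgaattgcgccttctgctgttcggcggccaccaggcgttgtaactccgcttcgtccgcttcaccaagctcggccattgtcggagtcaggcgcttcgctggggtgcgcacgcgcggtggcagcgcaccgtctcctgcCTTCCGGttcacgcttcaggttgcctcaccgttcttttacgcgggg
Cycs: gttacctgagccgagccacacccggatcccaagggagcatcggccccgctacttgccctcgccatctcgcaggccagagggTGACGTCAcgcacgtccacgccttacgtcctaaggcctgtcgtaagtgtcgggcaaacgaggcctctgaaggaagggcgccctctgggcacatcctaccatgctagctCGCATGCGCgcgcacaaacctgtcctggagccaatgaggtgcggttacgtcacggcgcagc
Cox6a1: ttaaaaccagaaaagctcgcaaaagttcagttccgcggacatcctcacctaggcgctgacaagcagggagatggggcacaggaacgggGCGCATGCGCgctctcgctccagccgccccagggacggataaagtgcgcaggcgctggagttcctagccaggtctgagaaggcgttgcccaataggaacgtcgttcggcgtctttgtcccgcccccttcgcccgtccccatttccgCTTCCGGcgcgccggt

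The capitals are a cyclic AMP response element (TGACGTCA) in Uqcrfs1 and Cycs, an ETS core as bound by GABP (CCGGAAG, here as its reverse complement CTTCCGG) in Sdhd and Cox6a1, and a site of nuclear respiratory factor 1 (GCGCATGCG) in Cycs and Cox6a1. Both strands were searched in 300 bases, 250 before and 50 after the start, and none of these motifs contains another. RefSeq promoters matched 75 of the members. The ETS core was in 25.3% of them, against 9.93% of the 27025 genes with a promoter, and the nuclear respiratory factor 1 site in 13.3% against 1.95%. The YY1 motif (AAGATGGC) was in 13.3% against 3.19%, the oestrogen-related receptor motif (TCAAGGTCA) in 2.67% against 0.466% and the cyclic AMP element in 5.33% against 2.03%. The cyclic AMP element and the letters of the nuclear respiratory factor 1 site were chosen after the sequences were seen. A match is only a match of letters. Differences between the pools were at hand for 71 of these members. Those with the ETS core had a median log2 difference of -0.23 (19 members) and those without the motif -0.19 (52 members), and for YY1 the medians were -0.18 (10 members) and -0.19 (61 members). For the nuclear respiratory factor 1 site the medians were 0.16 (10 members) and -0.22 (61 members). The cyclic AMP element gave -0.25 (4 members) and -0.19 (67 members), and the oestrogen-related receptor motif -0.10 (2 members) and -0.19 (69 members). Whether any motif goes with the direction of a difference was not tested.

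Oxidative phosphorylation transcripts differed little between the pools as a whole. Most of those of complexes I and II and of the core of complex III had lower signals in the IRI pool, and those of complexes IV and V were on both sides of 0. Signals were compared as log2 of the signal plus 16, IRI pool minus sham pool, for genes with the brighter signal at or above the median of its array (254.1 on the IRI array, 257.0 on the sham array). Each gene was represented by its brightest probe set, by mean log2 value. Of the 92 members, 88 passed this filter, and Cox7a1, Cox7b2, Cox7c and Cox8b did not.

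The median log2 difference of the 88 members was -0.19, and 60 of them (68.2%) were below 0. Over all 13117 genes past the filter the median was -0.01, with 50.7% below 0. The quartiles were -0.47 and 0.09 for the members, against -0.45 and 0.42 for all genes. Among the 1047 genes with mean signals from 2445 to 7943, the range that holds the middle 44 members, the median was -0.01 and the quartiles were -0.60 and 0.52.

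At least 2-fold higher were 2 of 88 members (2.27%), against 8.71% of all genes, and at least 2-fold lower were 3 members (3.41%), against 9.59% of all genes. Among genes in the members' signal range these shares were 10.5% and 14.8%. The higher genes were Ndufb1 and Ndufaf7, and the lower ones Ndufs1, Ndufb10 and Cox6b2. Ndufaf7 and Cox6b2 were dim on 1 array, and against the median of that array both were under 2-fold (Ndufaf7 at least 1.78-fold higher, Cox6b2 at least 1.19-fold lower). At a 1.5-fold threshold, 2 of 88 members were higher and 14 of 88 lower, smaller shares than the 18.7% and 19.3% of all genes. These 14 were 6 of complex I, 1 of complex II, 2 of complex III, 3 of complex IV and 2 assembly factors.

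The split between higher and lower depends on the reference. All 18 bacterial hybridisation controls were higher on the IRI array (median log2 difference 0.28). With these controls as the reference, 0 of 88 members lay beyond 2-fold on the higher side and 9 of 88 on the lower side. Both were smaller shares than the 5.76% and 15.4% of all genes. Members whose difference lies between 0 and 0.28 turn negative on that scale. The 9 lower ones were Ndufs1, Ndufb10, Ndufs8, Sdha, Uqcrfs1, Cox6b2, Ndufa4l2, Ndufaf3 and Ndufaf6, and the median of all genes became -0.30.

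**Figure D1:**
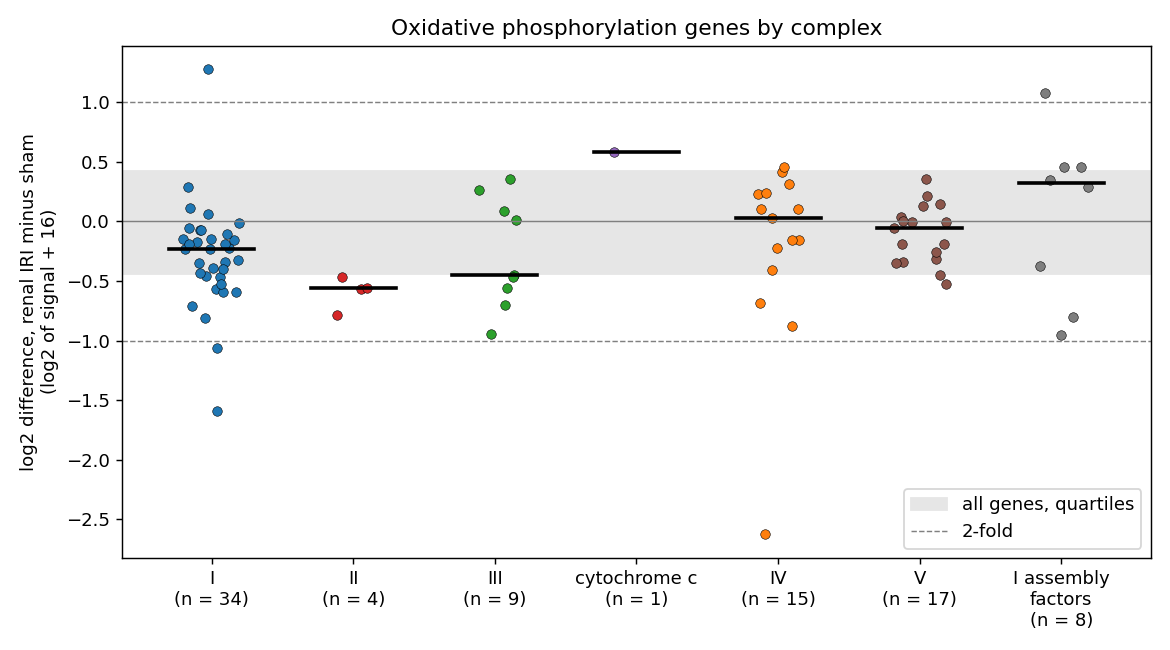
Log2 difference of each member gene past the filter (renal IRI pool minus sham pool, log2 of signal plus 16), by complex, with 1 point per gene, the median as a bar, the quartiles of all genes in grey and 2-fold as dashed lines. All 4 complex II genes lie below 0 with a median of -0.56, complex III splits around its median of -0.45, and complexes IV and V centre near 0 (0.02 and -0.05).

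Complex I, the NADH dehydrogenase, was lower for most of its subunits. Of 34 genes, 30 had a lower signal in the IRI pool, with a median log2 difference of -0.23 and quartiles of -0.46 and -0.12. The subunits fall into the core, which carries the redox centres, and the accessory subunits around it. The core genes had a median of -0.56 (6 genes, all lower) and the accessory genes -0.21 (28 genes, 24 lower). This grouping was made after the values were seen.

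Ndufs1, the large core subunit that holds several iron-sulphur clusters, had the lowest difference of the complex. Its signal was 896.6 in the IRI pool and 2729 in the sham pool, a log2 difference of -1.59 or 3.01-fold lower, by its single probe set. Ndufs8, an iron-sulphur subunit next to the ubiquinone site, had signals of 3634 in the IRI pool and 6377 in the sham pool (log2 difference -0.81). All 6 of its probe sets were lower, with differences from -1.09 to -0.35. The signal of Ndufs7, which holds the last iron-sulphur cluster before ubiquinone, was 2672 in the IRI pool and 4038 in the sham pool (-0.59).

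Ndufv2, an iron-sulphur subunit of the NADH-oxidising tip, had signals of 3683 in the IRI pool and 5298 in the sham pool (-0.52), and all 3 probe sets were lower. Its partner Ndufv1, which binds NADH and the flavin, had 3727 in the IRI pool and 4262 in the sham pool (-0.19), with a range of -0.53 to -0.19 over 3 probe sets. Ndufs3, a core subunit without a redox centre, had 3559 in the IRI pool and 4187 in the sham pool (-0.23). The 6 core genes measured were thus all lower, from 1.14-fold for Ndufv1 to 3.01-fold for Ndufs1.

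Among accessory subunits, Ndufb10, of the membrane arm, was the lowest, with a signal of 1464 in the IRI pool and 3078 in the sham pool (-1.06, 2.09-fold lower). Ndufa6 had 2309 in the IRI pool and 3791 in the sham pool (-0.71). Ndufv3 had 3321 in the IRI pool and 5025 in the sham pool (-0.59), and Ndufa13, also known as GRIM-19, 4328 in the IRI pool and 6416 in the sham pool (-0.57). Ndufab1, the mitochondrial acyl carrier protein, stood at -0.39. Ndufs4, a subunit whose loss causes a fatal brain disease in mice, had 1744 in the IRI pool and 1882 in the sham pool (-0.11), and its 3 probe sets past the filter ranged from -0.44 to -0.11.

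Only 4 complex I genes had a higher signal in the IRI pool by their brightest probe set. Ndufb1, a small subunit of the membrane arm, had 618.5 in the IRI pool and 246.0 in the sham pool. The sham signal lies under the array median, so the difference is given as a bound, at least 2.32-fold higher. Ndufa1 had 14601 in the IRI pool and 11932 in the sham pool (0.29), and Ndufa8 had 4505 in the IRI pool and 4160 in the sham pool (0.11). Ndufa3 stood at 0.06. The remaining genes of complex I lay between -0.47 and -0.01, and the lowest of these, Ndufb4, was dim in the IRI pool and at least 1.21-fold lower. Among them, Ndufa7 stood at -0.19 by its brightest probe set, but its other probe sets were above 0, up to 0.59. Ndufc2 stood at -0.16, with 3 probe sets past the filter from -0.16 to 0.12.

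The assembly factors of complex I, which build the complex and are not part of it, went both ways. Of 8 genes, 5 were higher and 3 lower, with a median of 0.32. Ndufaf3, which acts in assembly of the ubiquinone-binding module, had a signal of 494.5 in the IRI pool and 970.3 in the sham pool (-0.95). Ndufaf6 had 365.5 in the IRI pool and 649.3 in the sham pool (-0.80), and Ndufaf1 833.1 in the IRI pool and 1086 in the sham pool (-0.38).

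Ndufaf7, an arginine methyltransferase needed for assembly, had 470.4 in the IRI pool and 214.1 in the sham pool. It was at least 1.78-fold higher when set against the median of the sham array, by a probe set that may also bind related transcripts. Ndufaf8 (1626 in the IRI pool and 1182 in the sham pool) and Ndufaf4 (1113 in the IRI pool and 805.5 in the sham pool) stood at 0.45 and 0.46. The probe sets of both differed in sign, from -0.12 to 0.45 for Ndufaf8 and from -1.36 to 0.46 for Ndufaf4. Ndufaf2 stood at 0.35, and Ndufaf5, dim in the sham pool, was at least 1.16-fold higher.

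Complex II, succinate dehydrogenase, is shared by the respiratory chain and the tricarboxylic acid (TCA) cycle. All 4 of its subunits were lower in the IRI pool, from 1.38-fold to 1.72-fold, with a median log2 difference of -0.56. No member of the complex reached 2-fold. Sdha, the flavoprotein that oxidises succinate, had 5341 in the IRI pool and 9209 in the sham pool (-0.78). Its 3 probe sets past the filter ranged from -1.11 to 0.13, so not all of them were lower. Sdhb, the iron-sulphur subunit, had 6598 in the IRI pool and 9807 in the sham pool (-0.57).

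The membrane anchors, which bind ubiquinone, were lower too. Sdhd had 3280 in the IRI pool and 4827 in the sham pool (-0.56). Sdhc had 3121 in the IRI pool and 4313 in the sham pool (-0.46), and its other probe set, which can cross-hybridise, stood at -1.50. Of the 8 probe sets of complex II past the filter, 7 were below 0.

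Complex III, the cytochrome bc1 complex, divided between its core and its small subunits. The 4 genes of the catalytic subunits and core proteins were all lower (median -0.63), and 4 of the 5 small subunits were at or above 0 (median 0.08). This division was also drawn after the values were seen. Uqcrfs1, the Rieske iron-sulphur protein, had a signal of 4872 in the IRI pool and 9410 in the sham pool (-0.95, 1.93-fold lower). Its promoter is one of those shown with a cyclic AMP element.

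The core protein Uqcrc1 had 6205 in the IRI pool and 10080 in the sham pool (-0.70). Its partner Uqcrc2 had 4016 in the IRI pool and 5556 in the sham pool (-0.47), with -0.70 by its other probe set. Cyc1, cytochrome c1, had 8319 in the IRI pool and 12247 in the sham pool (-0.56). All 4 lay outside the quartiles of all genes on the lower side.

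Of the small subunits, Uqcrh, the hinge protein that meets cytochrome c, had 7019 in the IRI pool and 5499 in the sham pool (0.35). Uqcrb had 30397 in the IRI pool and 28670 in the sham pool (0.08), and Uqcrq had 7701 in the IRI pool and 7652 in the sham pool (0.01). Uqcr11 was the lower one, with 3484 in the IRI pool and 4775 in the sham pool (-0.45). Uqcr10 had 4846 in the IRI pool and 4033 in the sham pool (0.26), but its 3 probe sets ranged from -1.61 to 0.26. Probe sets of Uqcrb and Uqcrq also differed in sign.

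**Figure D2:**
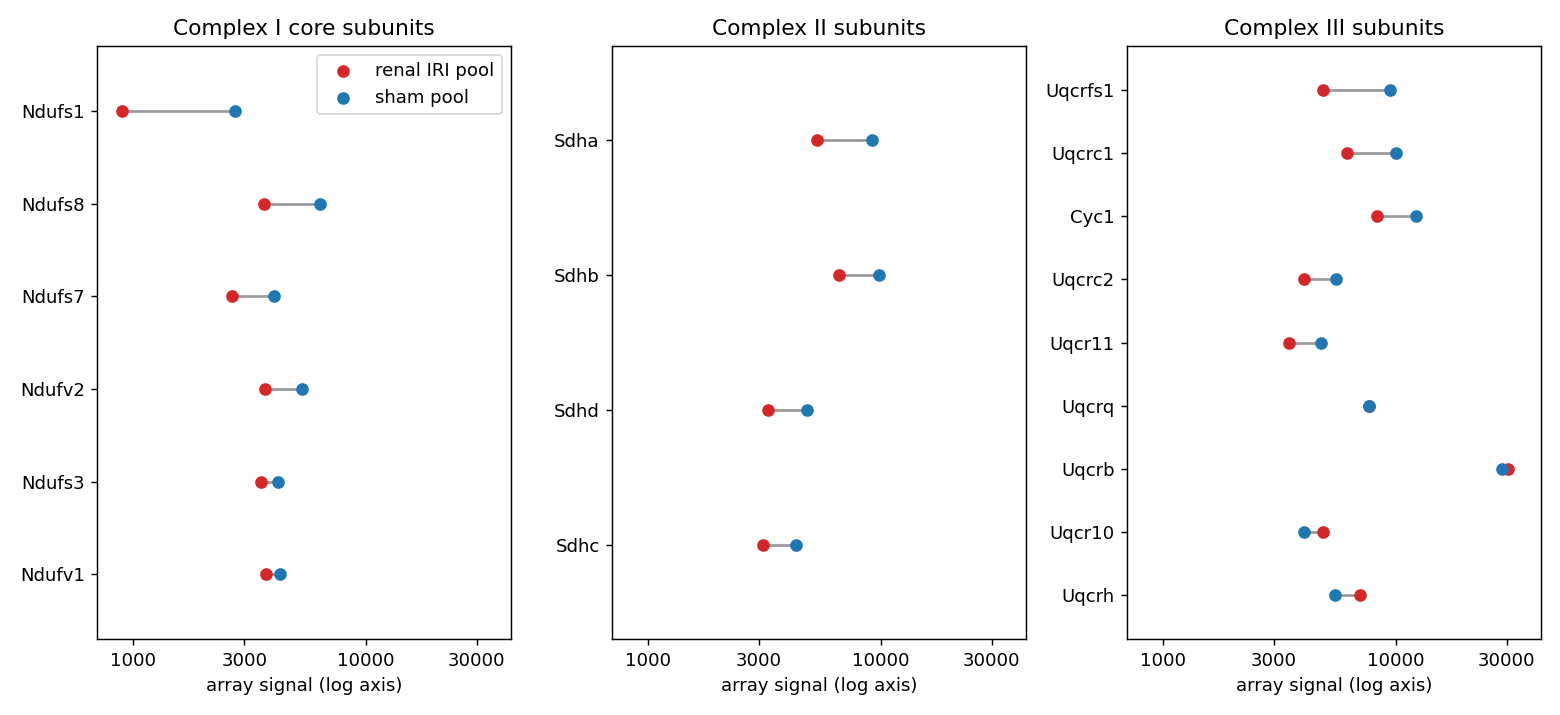
Array signal on a log axis of each gene in the IRI pool (red) and the sham pool (blue), for the core subunits of complex I, complex II and complex III, with 1 array per pool. The red point lies left of the blue one for all 6 core genes of complex I, all 4 of complex II and 5 of the 9 of complex III.

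Cycs, cytochrome c, carries electrons from complex III to complex IV and is also released from mitochondria in apoptosis. Its signal was 18780 in the IRI pool and 12536 in the sham pool (0.58). Its 4 probe sets were all higher, with differences from 0.51 to 1.54. The 1.54 came from a probe set dim in the sham pool (366.8 in the IRI pool and 115.6 in the sham pool). The others lay between 0.51 and 0.58. Cytochrome c and cytochrome c1, which meet at complex III, thus differed in direction.

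Complex IV, cytochrome c oxidase, had a median of 0.02 (15 genes, 8 above and 7 below 0), which was below 0 in 6 of the 15 settings described after complex V. The 8 widely expressed subunits alone had a median of 0.10, from -0.22 to 0.42. Cox6c, the highest of them, had a signal of 13698 in the IRI pool and 10265 in the sham pool (0.42). Cox6a1 had 25508 in the IRI pool and 20562 in the sham pool (0.31). Cox4i1, a regulatory subunit, had 14405 in the IRI pool and 13390 in the sham pool (0.11). None of these 8 reached 1.5-fold.

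Cox5a, which stood at -0.22, was the lowest of the widely expressed subunits, and its 3 probe sets ranged from -0.41 to 0.16. Cox5b stood at 0.23, with 5 probe sets past the filter from -0.44 to 0.23. Cox8a (4590 in the IRI pool and 4282 in the sham pool), Cox7a2 (19258 in the IRI pool and 18930 in the sham pool) and Cox6b1 (10765 in the IRI pool and 12016 in the sham pool) stood at 0.10, 0.02 and -0.16. Cox7a2l had 4228 in the IRI pool and 3076 in the sham pool. Its difference of 0.46 was the highest of complex IV, and all 3 of its probe sets were higher.

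Ndufa4, named for complex I but a subunit of complex IV, had 6530 in the IRI pool and 7291 in the sham pool (-0.16). Its paralog Ndufa4l2, which hypoxia induces, had 225.2 in the IRI pool and 427.3 in the sham pool, and was at least 1.64-fold lower against the median of the IRI array. Cox4i2, an isoform of lung also induced by hypoxia, had 456.8 in the IRI pool and 612.5 in the sham pool (-0.41). Neither isoform was higher in the IRI pool.

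Of the isoforms of testis and muscle, some were dim on 1 or both arrays. Cox6b2, known from testis, had 35.9 in the IRI pool and 304.1 in the sham pool. It counts among the genes at least 2-fold lower, but its IRI signal is under the array median, and the bound is at least 1.19-fold lower. Cox8c, also known from testis, was far above the median of both arrays, at 3364 in the IRI pool and 5412 in the sham pool (-0.68), and both of its probe sets were lower.

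Cox6a2, of heart and skeletal muscle, had 822.7 in the IRI pool and 693.7 in the sham pool (0.24). The muscle isoforms Cox7a1 (120.5 in the IRI pool and 176.7 in the sham pool) and Cox8b (45.9 in the IRI pool and 37.9 in the sham pool) were under the median on both arrays, as was Cox7b2 of testis (176.8 in the IRI pool and 132.1 in the sham pool), so no fold is given. Markers of muscle had summed signals of 1027 in the IRI pool and 1754 in the sham pool, and 2 of 10 passed the filter. Cox7b was not analysed here. Cox7c, which liver uses, had 29.5 in the IRI pool and 119.9 in the sham pool by the brighter of its 2 probe sets, and gives no fold either.

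**Figure D3:**
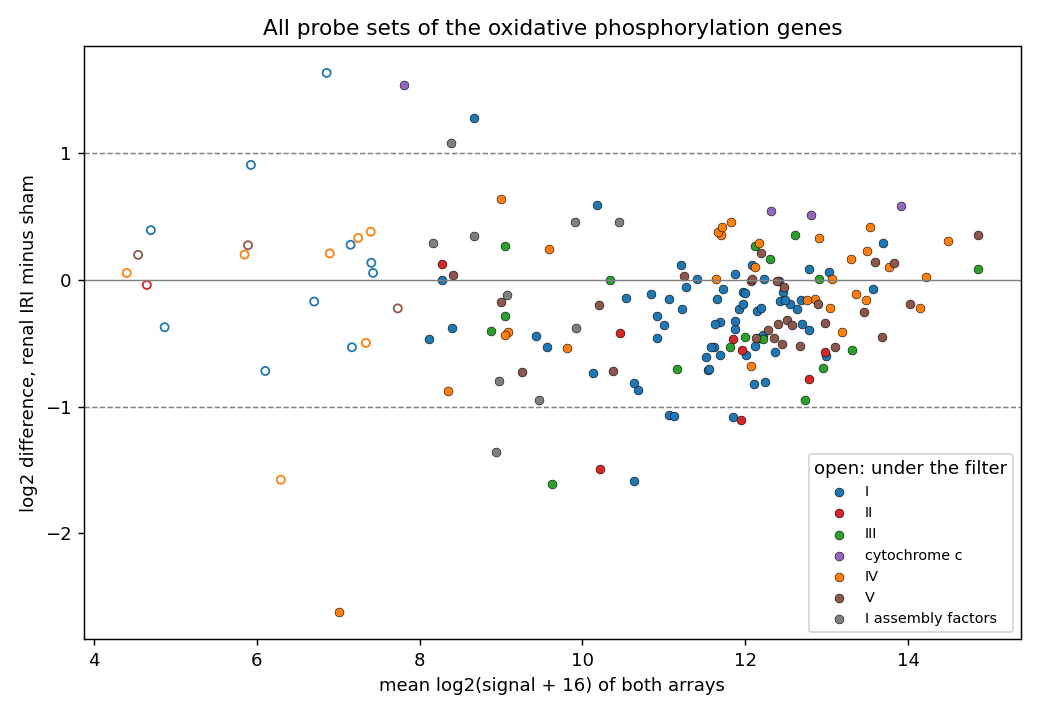
Log2 difference (renal IRI pool minus sham pool) of each of the 184 probe sets against its mean log2(signal + 16), coloured by complex, with probe sets under the filter as open circles and 2-fold as dashed lines. Past the filter, 56 of 66 probe sets of complex I, 7 of 8 of complex II, 10 of 17 of complex III, 13 of 30 of complex IV and 21 of 28 of complex V lie below 0.

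Complex V, the ATP synthase, had a median of -0.05 over 17 genes, with 11 below 0 and none at 1.5-fold in either direction. Over its 28 probe sets past the filter the median was -0.23, with 21 below 0, against -0.31 over the 66 of complex I. It consists of the catalytic head, the ring of c subunits that turns in the membrane, the stalk that holds the head still, and small membrane subunits. The head genes had a median of 0.03 (5 genes), the c subunit genes 0.21 (3 genes), the stalk genes -0.38 (4 genes) and the small membrane subunits -0.19 (5 genes). These groups were formed after the values were seen.

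In the head, the catalytic subunit Atp5b had a signal of 15600 in the IRI pool and 17821 in the sham pool (-0.19). Atp5a1 had 15109 in the IRI pool and 13802 in the sham pool (0.13), with probe sets from -0.52 to 0.13. Atp5d had 12933 in the IRI pool and 11712 in the sham pool (0.14), by a probe set open to cross-hybridisation, with -0.46 by the other. Neither Atp5a1 nor Atp5d therefore has a direction shared by its probe sets.

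Atp5g1, Atp5g2 and Atp5g3 encode the same mature c subunit with different import sequences. Atp5g3 was the highest of complex V, with 33507 in the IRI pool and 26178 in the sham pool (0.36). Atp5g2 had 5038 in the IRI pool and 4348 in the sham pool (0.21). Atp5g1 had 4258 in the IRI pool and 4279 in the sham pool (-0.01).

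The stalk held the lowest members. Atp5h had 7291 in the IRI pool and 10506 in the sham pool (-0.53), with -0.51 by its other probe set. Atp5pb, subunit b, had 11143 in the IRI pool and 15241 in the sham pool (-0.45), and its other probe set was lower as well. Atp5j stood at -0.31. Atp5o, which joins stalk and head, stood at 0.00, with -0.73 by a dimmer probe set. Atp5md, a small membrane subunit, had 5363 in the IRI pool and 6855 in the sham pool (-0.35).

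The order of the complexes was checked under 14 other settings of scaling, filter, pseudocount and choice of probe set. In all 15 settings the medians of complexes II and III were below that of complex I, which was below those of IV and V. Not all of these settings could alter the order. Centring on the median and the controls as reference shift every gene alike, so they cannot change it. The medians of complexes I, II, III and V kept their reported values without a filter and with dim signals raised. The same held with both signals at or above the median. With probe sets of the suffixes _x_at, _s_at and _a_at left out, complex I (-0.193) and complex V (-0.188) nearly coincided. The median of complex IV ranged from -0.26 to 0.10 over the 15 settings. Probe sets of the same member gene differed with an SD of 0.35 in log2 difference (47 genes with several probe sets past the filter), against 0.72 for any gene. In 16 of these 47 genes, probe sets differed in sign. Many of the single differences given here are smaller than that disagreement.

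**Figure D4:**
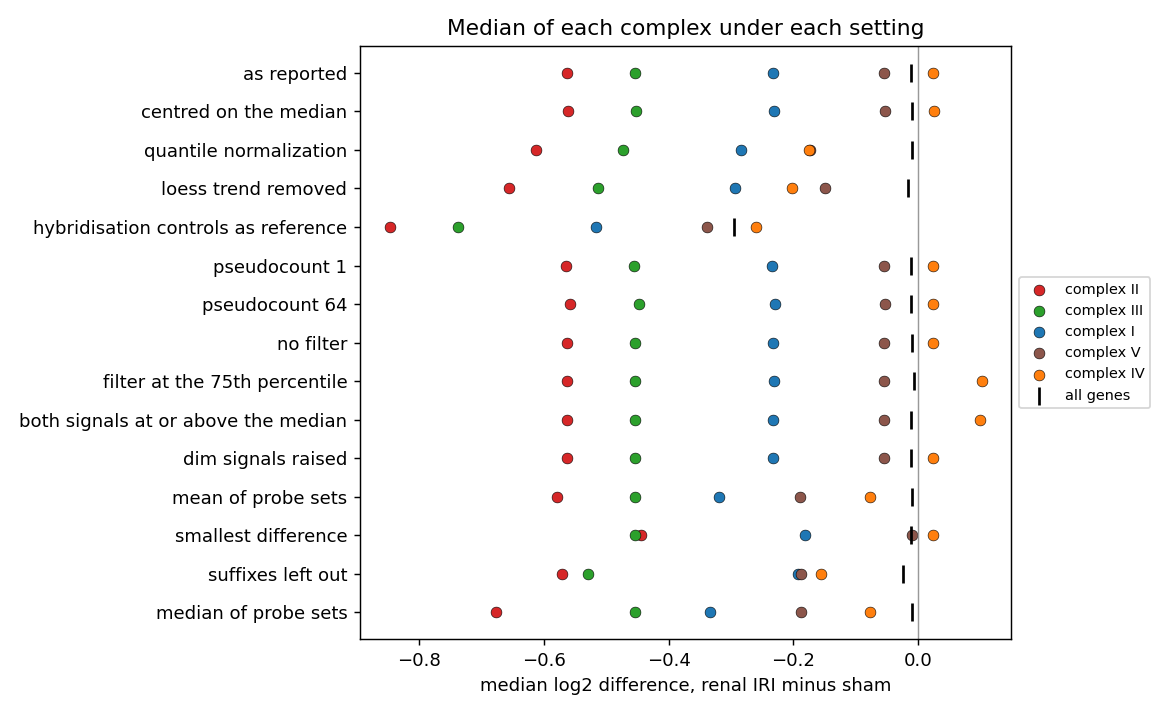
Median log2 difference (renal IRI pool minus sham pool) of each complex, and of all genes as a black tick, under the reported setting and 14 others. Complexes II and III stay left of complex I in every row, while complexes IV and V shift between -0.34 and 0.10.

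Both arrays carried the markers of hepatocytes. All 7 hepatocyte markers measured passed the filter, with summed signals of 276851 in the IRI pool and 218640 in the sham pool. By their brightest probe sets they did not move together. Alb, Apoa1, Ttr and Tat had higher signals in the IRI pool, and Cps1 (15307 in the IRI pool and 33265 in the sham pool, -1.12) a lower one. Apob (-0.22) and Hnf4a (-0.06) were slightly lower, but their probe sets differed in sign. The other probe set of Apob stood at 2.02, and the 4 of Hnf4a ranged from -0.26 to 0.27. Of the markers of pancreatic acinar cells, 6 of 8 were at least 2-fold higher, with summed signals of 13626 in the IRI pool and 5425 in the sham pool. Cholangiocyte markers summed to 2453 in the IRI pool and 653.1 in the sham pool. Of the 3 past the filter, Epcam and Sox9 were at least 2-fold higher, and Krt19, dim in the sham pool, at least 1.93-fold. White fat markers summed to 5770 in the IRI pool and 320.8 in the sham pool, nearly all from Fabp4. The 4 probe sets of Fabp4 ranged from -0.06 to 4.48, and Adipoq and Lep were under the filter. Neutrophil markers summed to 5451 in the IRI pool and 3480 in the sham pool, and S100a8 was at least 5.21-fold and S100a9 at least 2.95-fold higher. The other neutrophil markers went both ways: Ngp stood at 0.37, Mpo at 0.07 and Elane at -0.44, and Camp was under the filter. Markers of Kupffer cells or macrophages summed to 6635 in the IRI pool and 8427 in the sham pool, with a median log2 difference of -0.37. They too went both ways, and none reached 2-fold by its brightest probe set. Cd68 (0.47) and Marco (0.18, with 2.58 by its other probe set) were higher, and the others lower. Endothelial markers summed to 4407 in the IRI pool and 2388 in the sham pool, and among them Lyve1 had 2741 in the IRI pool and 326.8 in the sham pool. The other endothelial markers did not share this rise. Stab2 had 588 in the IRI pool and 1058 in the sham pool (-0.83), Pecam1 stood at -0.01 and Cdh5 at 0.16. No marker was listed at 0, and the part of these cells in the results was not tested. The ratio of 3' to 5' signal was 1.24 in the IRI pool and 1.38 in the sham pool for beta-actin, and 0.721 in the IRI pool and 0.743 in the sham pool for Gapdh.

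Lists of neighbouring mitochondrial pathways were described in the same way, beside the shares of all genes given before (8.71% higher, 9.59% lower). The TCA cycle had a median of -0.20 (13 genes), and 0 of its genes lay beyond 2-fold. Its lowest gene was Suclg1, of succinyl-CoA ligase, with 3962 in the IRI pool and 7844 in the sham pool (-0.98). The highest was Fh1, fumarase, with 12571 in the IRI pool and 6378 in the sham pool (0.98). Enzymes that stand just before and just after succinate dehydrogenase thus differed in opposite directions.

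Genes that feed electrons into ubiquinone or make it varied far more than the complexes. Of 19 genes, 3 lay beyond 2-fold on the higher side and 8 on the lower side, and the list's median was -0.81. Chdh, choline dehydrogenase, had 102.7 in the IRI pool and 2218 in the sham pool, at least 8.27-fold lower. Coq8b, of ubiquinone synthesis, had 3351 in the IRI pool and 844.3 in the sham pool (1.97). Its relative Coq8a had 122.7 in the IRI pool and 1711 in the sham pool, at least 6.40-fold lower.

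Other assembly factors of complexes I to V had a median of -0.22 (40 genes), and beyond 2-fold lay 1 higher and 3 lower genes. Coa7, a factor for complex IV, was the highest, with 639.9 in the IRI pool and 305.0 in the sham pool (1.03). Dmac2 was at least 2.26-fold lower, with 249.4 in the IRI pool and 593.6 in the sham pool.

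The list of nucleotide and phosphate carriers, outer membrane channels and uncoupling proteins had a median of -0.12 (9 genes). The channel of the outer membrane Vdac1 had 3598 in the IRI pool and 7069 in the sham pool (-0.97), and its 4 probe sets past the filter were all lower. Slc25a4, an ADP/ATP carrier, had 322.7 in the IRI pool and 34.0 in the sham pool, at least 1.24-fold higher. Slc25a3, the phosphate carrier, stood at 0.36.

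Regulators of mitochondrial biogenesis had a median of 0.12 (21 genes), and beyond 2-fold lay 1 higher and 1 lower gene. Ssbp1, which binds mitochondrial DNA, had 2549 in the IRI pool and 1058 in the sham pool (1.26). Its 4 probe sets past the filter ranged from 0.06 to 1.26. Sirt3, the mitochondrial deacetylase, had 387.8 in the IRI pool and 1418 in the sham pool (-1.83). The coactivator Ppargc1a had 529.7 in the IRI pool and 424.8 in the sham pool (0.31), but its 3 probe sets past the filter ranged from -1.74 to 0.31. Tfam, which packages mitochondrial DNA and activates its transcription, had 1070 in the IRI pool and 980.8 in the sham pool (0.12), with -0.92 by its other probe set.

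Proteins of the mitochondrial ribosome, which translates the subunits encoded by mitochondrial DNA, had a median of 0.04 (76 genes), and beyond 2-fold lay 3 higher and 3 lower genes. Mrps27 had 115.8 in the IRI pool and 569.4 in the sham pool, at least 2.17-fold lower. Mrps18b had 2903 in the IRI pool and 1326 in the sham pool (1.12). Mrps11, whose difference was larger but whose sham signal was dim, had 264.7 in the IRI pool and 101.1 in the sham pool, at least 1.03-fold higher. Proteins of the cytosolic ribosome had a median of 0.67 (40 genes, 39 of them above 0), from -0.17 for Rps6 to 1.58 for Rpl41. Most ribosomal protein genes were therefore on the other side of 0 from most genes of complexes I and II.

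**Figure D5:**
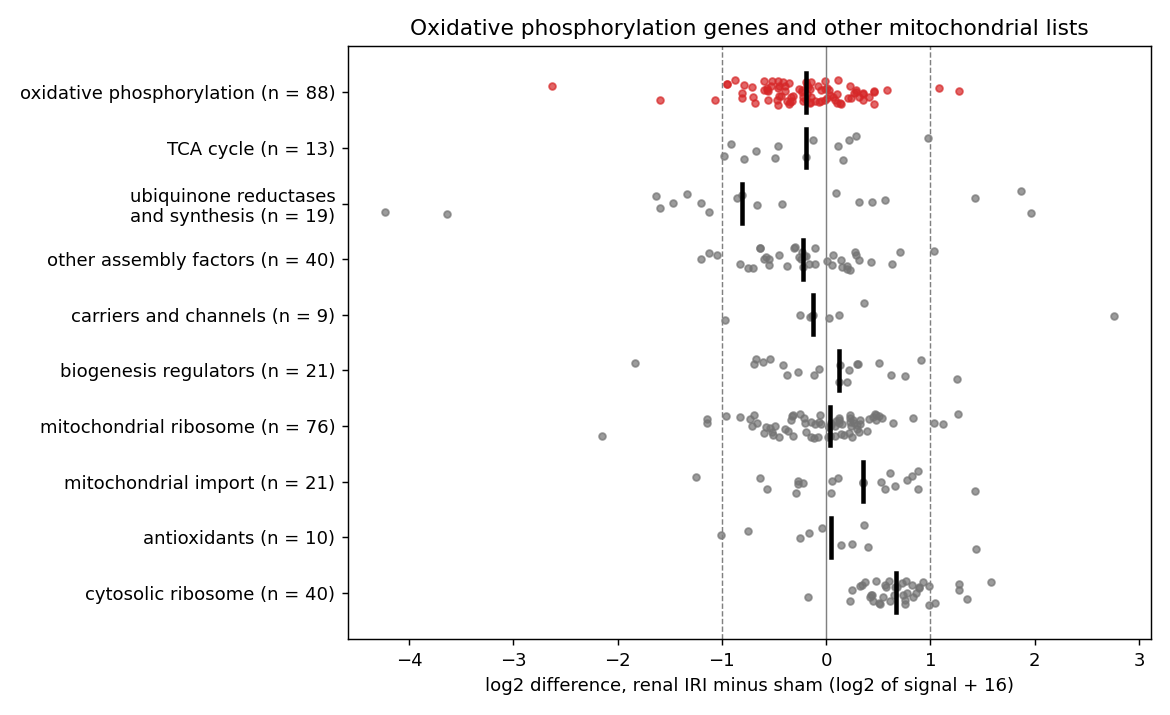
Log2 difference (renal IRI pool minus sham pool, log2 of signal plus 16) of each gene past the filter in the oxidative phosphorylation genes (red) and in 9 other lists (grey), with medians as bars and 2-fold as dashed lines. The oxidative phosphorylation genes centre at -0.19, the ubiquinone list at -0.81 and the cytosolic ribosome at 0.67.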

How the data were processed

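The deposited values are 1 microarray intensity per probe set on a linear scale. Trizol RNA (6 ug) was turned into biotinylated cRNA, per the labels' protocols. Both arrays had the same 2% trimmed mean of the deposited intensity, 500.0, as after scaling to one target, with software not given in the sources used here. Of 45037 probe sets other than the 64 controls, 34945 had 1 gene, 932 several and 9160 none. Symbols came from the platform annotation, which may be outdated, and 34741 were updated through the Entrez ID to RefSeq, GRCm38.p6.

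Differences are log2(signal + 16), IRI minus sham. A gene under the median of 1 array is given as a bound: the brighter signal against that median, each plus 16. Probe sets ending in _x_at or _s_at can cross-hybridise. Named genes were those past 2-fold, the 3 highest and 3 lowest of complexes I, IV and V and of the assembly factors, all of complexes II and III and cytochrome c, isoform groups, and genes whose probe sets differed in sign by over 1. In the other lists, the highest and lowest genes, Ppargc1a and Tfam were named. Genes named beyond this rule, such as other core subunits, were chosen after their values were seen. Members, lists and settings were chosen with earlier results of these data known. With 1 array per group no test was possible, and the number of arrays limits the precision. The steps were tested on simulated data with planted differences much larger than most of those given here. That test does not cover differences of the reported size. Python 3.11.15, pandas 2.3.3 and statsmodels 0.14.6 were used.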

Additional observations from a re-analysis of the deposited data

How the results depend on the processing

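No paired analysis was possible because each group has 1 array. A median is said to shift when it moved by more than the SD between probe sets of a gene over the square root of the number of genes, and a count when it moved by over 1.5 times. The median of all members shifted from -0.19 to -0.25 by quantile normalization, -0.29 with a loess trend removed, -0.47 with hybridisation controls as the reference, -0.26 by the mean of probe sets, -0.13 by the smallest difference and -0.23 by the median of probe sets. Complex I, at -0.23, shifted to -0.29 (loess), -0.52 (controls), -0.32 (mean) and -0.33 (median of probe sets). Complexes II and III shifted only with the controls, to -0.85 and -0.74. Complex IV, at 0.02, turned to -0.17 (quantile), -0.20 (loess), -0.26 (controls), -0.077 (mean and median of probe sets) and -0.16 (without probe sets ending in _x_at, _s_at or _a_at). Complex V, at -0.05, shifted to -0.17 (quantile), -0.15 (loess), -0.34 (controls) and -0.19 (mean and median of probe sets, and without those suffixes). The count of members 2-fold higher, 2, became 0 with the controls, with both signals at or above the median and at 3-fold. It became 1 with a pseudocount of 64, a filter at the 75th percentile, dim signals raised to the median, the suffixes left out and, as a setting added later, without assembly factors. The count 2-fold lower, 3, became 9 with the controls and 14 at 1.5-fold. The controls lower every difference by 0.28 by construction. For the other settings the cause was not tested. Of the values of named genes under these settings, 608 differed from the reported value by less than the SD between probe sets (0.35) and 16 by more. Centring and the controls shift every gene alike and by less than that SD, so they could move no gene beyond it. No gene past 2-fold changed sign. Some other named genes did, among them Uqcr10 (-1.61 to 0.27), Sdha (-1.07 to 0.13), Ndufaf4 (-0.45 to 0.47) and Uqcrb (-0.53 to 0.09).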

Other observations

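Probe sets annotated with several genes were left out of the members, and 10 of them name an oxidative phosphorylation gene. Of the 2 shared by Ndufb4 and its copies Ndufb4b and Ndufb4c, the brighter had 3713 in the IRI pool and 5446 in the sham pool (-0.55). The probe set of Ndufs6 and Ndufs6b had 4183 in the IRI pool and 4737 in the sham pool (-0.18). The brighter of the pair for Ndufa11 and Ndufa11b had 3441 in the IRI pool and 3870 in the sham pool (-0.17). The probe set of Ndufs5 and its pseudogene had 1118 in the IRI pool and 1489 in the sham pool (-0.41). These were lower, but the probe set with the largest difference, shared by Ndufb2 and Adck2, was higher, with 329.3 in the IRI pool and 111.1 in the sham pool. Its sham signal was dim, and the log2 difference was 1.44. The inhibitor of the ATP synthase, listed as Atpif1 and so outside the rule for members, had 483.3 in the IRI pool and 410.0 in the sham pool (0.23), and its other probe set past the filter stood at -1.92.

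Genes of mitochondrial protein import had a median of 0.35 over 21 genes, with 14 above 0. Tomm20, the receptor of the outer membrane, had 14431 in the IRI pool and 5345 in the sham pool (1.43), with 6 probe sets from -0.50 to 1.43. Timm9 had 215.9 in the IRI pool and 534.3 in the sham pool, at least 2.04-fold lower. Mitochondrial antioxidant genes had a median of 0.05 over 10 genes. Gsr, glutathione reductase, had 4779 in the IRI pool and 1753 in the sham pool (1.44). Nnt, which makes NADPH in mitochondria from the proton gradient, had 854.8 in the IRI pool and 1741 in the sham pool (-1.01), and both of its probe sets past the filter were lower.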
